A study of Rattus norvegicus with 15 samples.

Results

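The retinas of rats that received sodium iodate (NaIO3) and mesenchymal stem cells engineered to express erythropoietin (MSC-EPO) were compared with retinas of healthy rats (no treatment, NT). The comparison used the 3 libraries titled EPO and the 3 titled NT, 6 of the 15 libraries of the series. A gene was tested when its mean value over these 6 libraries was at least 3.32, the log2 of 10, which 15403 of 20375 genes reached. The lowest mean among tested genes was 3.325 and the highest among the others was 3.322. All animals were wild type Sprague-Dawley rats, labelled post natal week 12 although the series describes them as 31 days old, and the labels placed the tissue at post-transplant day 31. NaIO3, which poisons the retinal pigment epithelium and then the photoreceptors, was given systemically at 40 mg/kg. The MSC-EPO cells were human Wharton's jelly mesenchymal stem cells carrying a lentiviral human EPO gene. They were injected into the vitreous 4 days ahead of NaIO3, at 100000 cells per μl by the labels and at a lower density by the study's methods, so the dose is not settled. Rats with xenografts had dexamethasone at 2 mg/kg before surgery and cyclosporin afterwards, at 10 mg/kg per day by the labels. NT rats are labelled healthy, and the immunosuppressants are named only for rats with xenografts. The effects of these 5 things, the cell product included, cannot be told apart in MSC-EPO against NT. Sham rats (NaIO3 and an injection of vehicle) and MSC rats (NaIO3 and the unmodified cells), with 3 libraries each, were set beside them, and 12 libraries entered the fit.

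Rods carry the light response through a visual pigment, the G protein transducin and a cGMP phosphodiesterase, and the retinal pigment epithelium recycles the visual pigment and supports the outer segments. When photoreceptors degenerate, Müller glia, which span the retina, build up intermediate filaments and secrete cytokines of the gp130 family. Microglia become phagocytic and present antigen, and leukocytes may enter. Erythropoietin signals through its receptor to JAK2 and STAT5, and is known as a survival factor for neurons besides its role in red cell production.

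The deposited values are regularized log (rlog) values on a log2 scale, which shrink each library toward the mean of the gene, so the fold changes below tend to understate differences of weakly expressed genes. The files hold no counts, and the depth of each library is not in them. Medians over the tested genes lay between 8.64 and 8.82 in the 12 libraries, and 0 of the libraries were identical. One MSC-EPO library stood apart. In MSC-EPO library 3, 1736 genes lay over 1 log2 unit from the mean of the other libraries of its group (1543 lower and 193 higher), against 473 and 341 in MSC-EPO libraries 1 and 2, 66 to 105 in NT and sham libraries, and 1035, 115 and 597 in MSC libraries 1, 2 and 3. Its deviation moved with gene length, with a median of 0.29 in the shortest of 5 equal classes of genes and -0.42 in the longest. Genes of the lens were also high in it, as given below. The first principal component of the 6 libraries (50.7% of the variance) placed MSC-EPO libraries 1 and 2 at 49.5 and 41.4 and library 3 at -11.4, and the second (36.9%) held library 3 at 61.7. Counts of changed genes are therefore also given without this library, and the part of length or lens tissue in any result was not tested. The labels do not state that libraries of a group came from separate animals, and p-values measure the spread between these libraries.

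A gene was called when its adjusted p was under 0.05 (limma, Benjamini-Hochberg over all tested genes) and its log2 difference was over 1 in size. Below, a pair of values in parentheses after a gene gives its log2 difference and its limma adjusted p, and a lone value after a stated difference gives the adjusted p. Against NT, 365 genes were called higher in MSC-EPO retinas (2.37% of tested genes) and 184 lower (1.19%), so that 66.5% of 549 calls were rises. All values of MSC-EPO were above all of NT for 2532 genes (16.4%) and below for 2309 (15%). The median difference over all tested genes was -0.004. The largest rises were in Gfap, RT1-Ba, Cd74, RT1-Db1, Serpina3n, RT1-Da, RT1-Bb, C3, Gbp2 and Serping1, from 2.88 (Serping1) to 4.08 (Gfap). They are genes of glial filaments, class II antigen presentation, acute phase response, complement and interferon response. Among the 10 largest falls were Lamb3, Esrrb, Gnat1, Slc4a7, Clul1, Hk2 and Slc6a6, from -2.64 (Lamb3) to -1.94 (Slc6a6), and Gnat1 among them is a gene of the rod light response. A further 306 genes were over 1 log2 unit higher without passing, 86 of them without a symbol. Without MSC-EPO library 3, 725 genes were called higher and 183 lower, and 487 of the 549 genes were called again. Without NT library 3, the calls were 150 and 127. In the 6 fits that each left out 1 library, 128 higher and 97 lower genes were called every time.

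**Figure D1:**
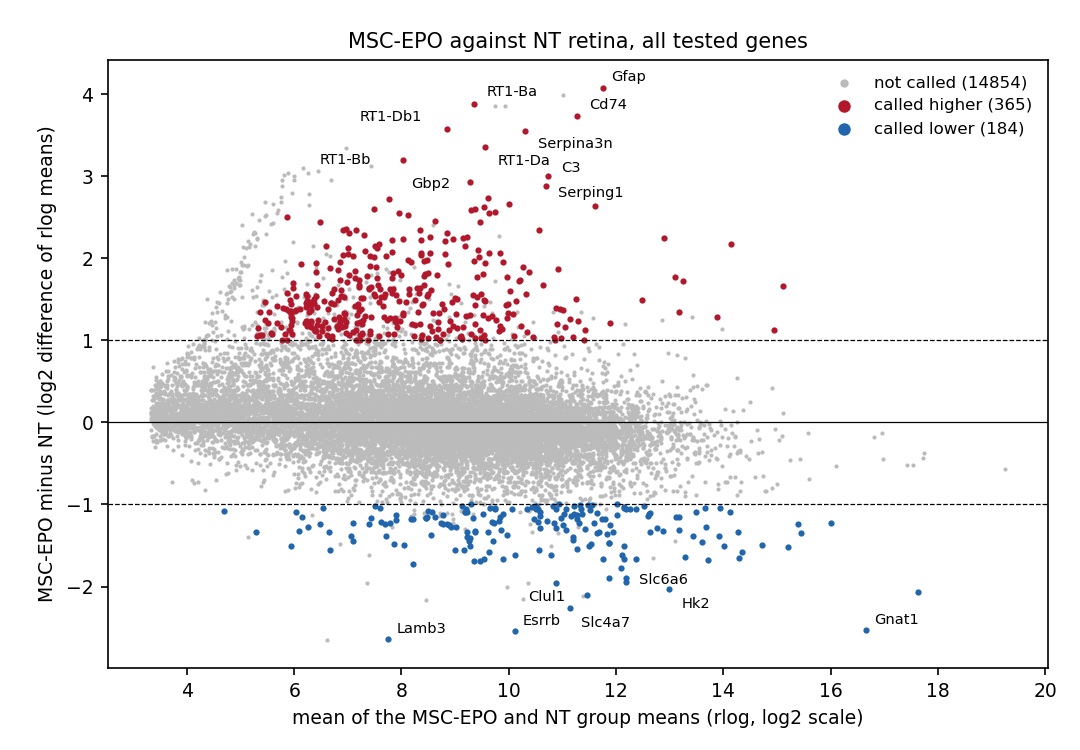
Difference of group means, MSC-EPO minus NT (log2, vertical axis), against the mean of the 2 group means (rlog, horizontal axis) for 15403 genes; red points are the 365 genes called higher, blue points the 184 called lower, grey points were not called, and dashed lines mark 1 log2 unit. Gfap (4.08) tops the called rises, while Gnat1 is the most strongly expressed of the named falls.

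Most genes of the rod light response were lower. Of 21 tested genes of rod phototransduction, 19 were called lower and 0 higher (limma), beside 1.19% of all tested genes called lower. At an unadjusted limma p under 0.05, 21 were lower and 0 higher. In all 21 the 3 MSC-EPO values lay below the 3 NT values, as they did in 15% of all tested genes. The median difference was -1.46, beside -0.004 over all genes. Gnat1, the α subunit of rod transducin, read 15.19, 14.71 and 16.28 in the 3 MSC-EPO libraries and 17.91, 18.04 and 17.83 in the NT libraries, a fall of 5.79-fold (log2 -2.53, SE 0.33, limma adjusted p 0.00104). Its value in MSC-EPO library 3 was the highest of the group, yet still below every NT value. Pde6b, a catalytic subunit of the rod phosphodiesterase, read 13.4, 13.28 and 13.7 against 15.07, 15.12 and 15.15 and fell by 1.65 on the log2 scale (SE 0.13, adjusted p 7.53e-05). Shutoff and calcium handling followed the same direction. Grk1, a photoreceptor kinase, differed by -1.78 (adjusted p 0.000218), Gnb5, a partner of the RGS9 complex that ends transducin signaling, by -1.18 (8.72e-05), and Slc24a1, the sodium, calcium and potassium exchanger of rods, by -1.58 (0.000132). Cnga1, the rod cGMP-gated channel, differed by -1.39 (0.000205). Between 16 and 18 of the 21 genes were called lower when any 1 library was left out, and 17 without MSC-EPO library 3. Whole retinas were sequenced, in which fewer rods and less RNA per rod cannot be told apart.

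**Figure D2:**
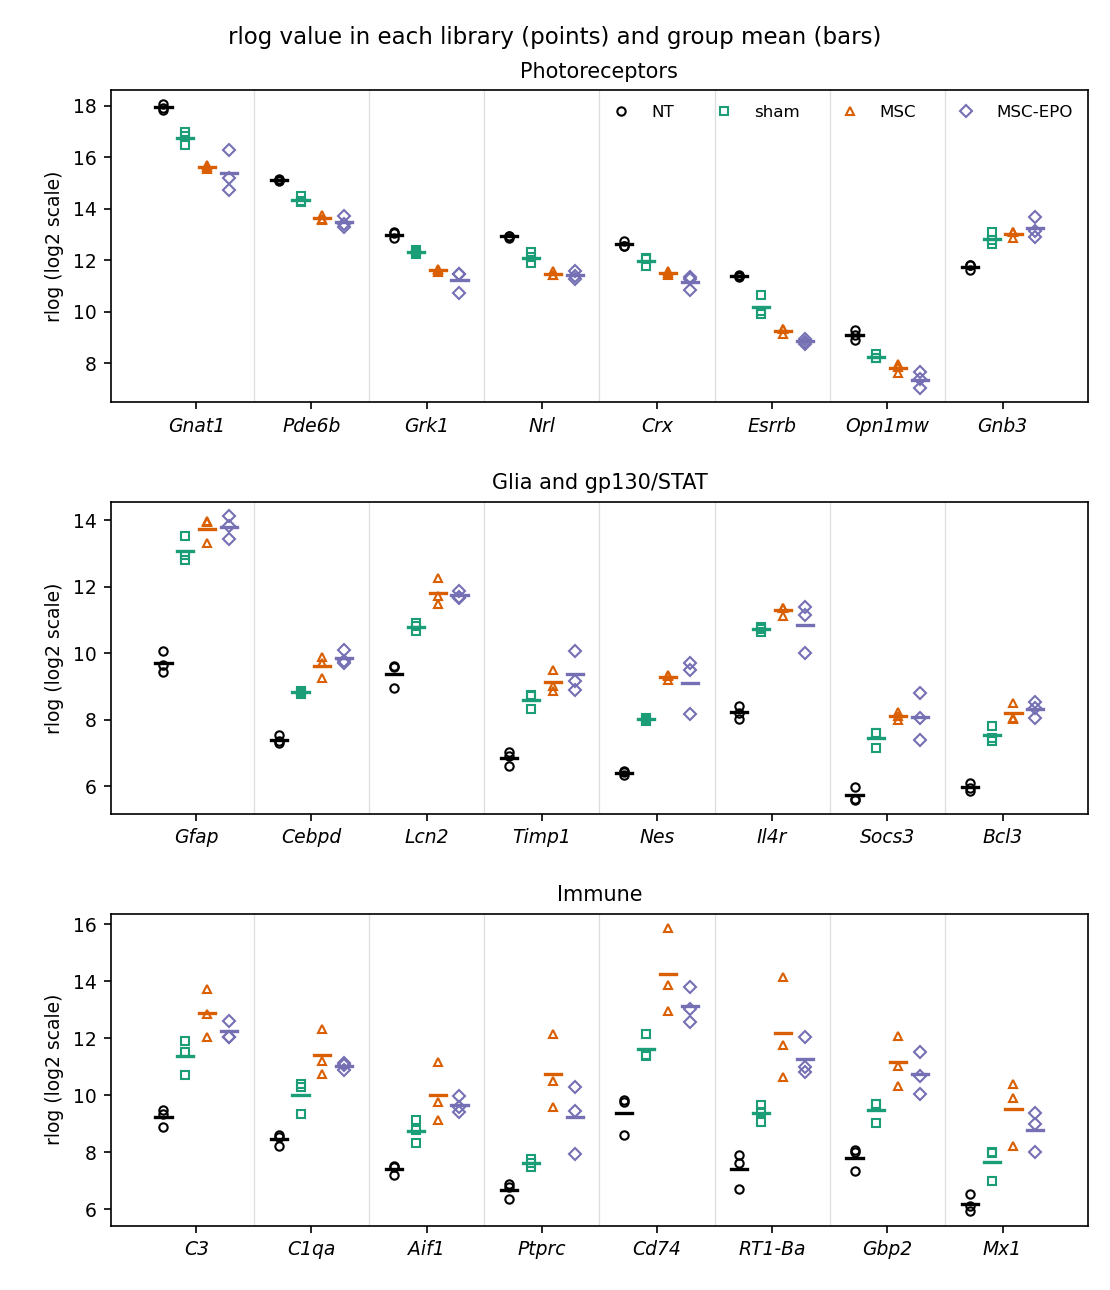
rlog value (log2 scale, vertical axis) of 24 genes in each of 3 libraries per group, with NT as circles, sham as squares, MSC as triangles and MSC-EPO as diamonds, and bars for group means. Gnat1, Pde6b, Grk1, Nrl, Crx, Esrrb and Opn1mw lie below NT in every MSC-EPO library, and Gnb3 and the genes of the glial and immune panels lie above.

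Some factors of rod identity were lower. Of 14 tested transcription factors of photoreceptors, 5 were called lower and 0 higher (unadjusted p under 0.05 in 13, all lower), with a median of -0.81. Esrrb, a nuclear receptor tied to rod survival and energy supply, read 8.95, 8.82 and 8.74 against 11.35, 11.37 and 11.41, which is 5.81-fold lower (log2 -2.54, SE 0.17, limma adjusted p 3.89e-05). Nrl, the factor that sets rod fate, read 11.25, 11.36 and 11.59 against 12.94, 12.95 and 12.86 and differed by -1.51 (adjusted p 0.000109). Crx, which drives most photoreceptor genes, read 11.35, 11.26 and 10.82 against 12.54, 12.74 and 12.54, a difference of -1.47 (0.000229). No MSC-EPO value of these 3 genes reached the lowest NT value. Nr2e3, which represses cone genes in rods, differed by -1.23 (0.000852), whereas Otx2 (-0.64) and Thrb (-0.57), the latter a cone factor, passed the p but not the fold threshold. Of 15 genes of outer segment discs and interphotoreceptor matrix, 5 were called lower and 0 higher (11 lower and 0 higher at an unadjusted p under 0.05). Rp1, a microtubule protein of the outer segment axoneme, read 14.46, 13.97 and 13.52 against 15.35, 15.62 and 15.46 (log2 -1.49, limma adjusted p 0.00124), with library 3 the lowest. Rom1, a disc rim protein, differed by -1.33 (0.00721), and Abca4, the flippase of retinoid conjugates, by -1.04 (0.000554). Without MSC-EPO library 3 the count was 3, and without MSC-EPO library 1 it was 6.

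Cone genes did not move as one group. Of 12 tested genes of cone phototransduction, 3 were called lower and 1 higher. Opn1mw, the medium-wavelength cone opsin, read 7.64, 7.37 and 7.03 against 8.9, 9.27 and 9.08 and fell by 1.73 (SE 0.16, limma adjusted p 0.000218). Arr3, cone arrestin, read 9.28, 9.18 and 9.36 against 10.35, 10.26 and 10.66, a difference of -1.15 (0.0334) that was called in 1 of the 6 fits with a library left out. Gnat2, the cone transducin α subunit, read 11.15, 10.62 and 11.35 against 11.52, 11.52 and 11.75, a difference of -0.56 that did not pass (0.118). Gnb3, the β subunit used by cones and ON bipolar cells, stood in the opposite direction. It read 12.88, 13.13 and 13.68 against 11.81, 11.6 and 11.81, 2.8-fold higher (log2 1.49, SE 0.19, adjusted p 0.001), and sham retinas differed from NT by 1.07 as well.

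At the photoreceptor synapse 2 of 17 genes were called lower and 0 higher (12 lower and 0 higher at an unadjusted p under 0.05). These were Cabp4, a calcium binding protein that tunes the presynaptic channel (-1.33, adjusted p 0.00316), and Unc119, a lipid-binding trafficking factor (-1.09, 0.0031). Slc17a7, the vesicular glutamate transporter of photoreceptors, read 13.76, 13.85 and 14.09 against 14.67, 14.77 and 14.76, below the fold threshold (-0.83, 0.00179). Among 23 genes of the pigment epithelium and visual cycle, 2 were called lower and 0 higher, and both are made in photoreceptors. Rbp3, the interphotoreceptor retinoid carrier, read 13, 12.9 and 12.72 against 14.48, 14.53 and 14.66 (log2 -1.68, limma adjusted p 7.53e-05), and Rdh12, a retinol dehydrogenase of inner segments, differed by -1.58 (0.000351). Rpe65, the isomerohydrolase that defines the pigment epithelium, read 10.66, 11.35 and 9.95 against 11.58, 12.36 and 11.82. The groups did not overlap, but the MSC-EPO values spread over more than 1 log2 unit and the difference of -1.27 did not pass (0.166). Best1, also a marker of the pigment epithelium, went the other way and passed the p but not the fold threshold (0.52, limma adjusted p 0.0469). At an unadjusted p under 0.05, 9 genes of this list were lower and 2 higher.

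The inner retina was described by 3 lists. Of 19 genes listed for ON bipolar cells, 1 was called lower (5.26%, beside 1.19% of all tested genes). It was Lrit3, an organizer of the postsynaptic receptor complex (-1.24, limma adjusted p 0.0225). Its call was absent without MSC-EPO library 3, NT library 2 or NT library 3. The cells that made the Lrit3 RNA cannot be told from whole retinas. Grm6, the glutamate receptor of ON bipolar cells, read 11.02, 11.13 and 11.53 against 11.09, 10.81 and 11.33, and these ranges overlapped (0.14, 0.742). Prkca, the rod bipolar kinase, read 11.93, 11.71 and 10.23 against 12.28, 12.24 and 12.5, with library 3 over 1 unit below the others (-1.05, 0.0876). Of 22 amacrine and horizontal cell genes and 18 ganglion cell genes, 0 and 0 were called (limma; at an unadjusted p under 0.05, 4 lower and 0 higher in the former, 3 lower and 0 higher in the latter). Gad1, the GABA synthesizing enzyme of amacrine cells, differed by -0.36 (0.385), and Rbpms, a ganglion cell marker, by 0.05 (0.873). Opn4, the melanopsin of light-sensing ganglion cells, read 7.36, 7.54 and 7.58 against 8.16, 8.49 and 8.42 without overlap, yet below the fold threshold (-0.87, 0.00601). List medians were 0.10 for ON bipolar cells, -0.12 for amacrine and horizontal cells and -0.10 for ganglion cells, and without MSC-EPO library 3 they were -0.09, -0.22 and -0.29.

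Reactive gliosis was among the strongest features. Of 35 tested gliosis genes, 20 (57.1%) were called higher and 1 lower, with a median of 1.44, and 15 to 25 were called higher with 1 library left out, the 25 being without MSC-EPO library 3. Gfap, the intermediate filament of reactive glia, read 13.84, 14.13 and 13.43 against 9.64, 10.08 and 9.43. Every MSC-EPO value exceeded every NT value by more than 3 units, a rise of 17-fold (log2 4.08, SE 0.26, limma adjusted p 3.89e-05). Cebpd, an acute phase transcription factor, read 9.78, 9.71 and 10.09 against 7.56, 7.35 and 7.29 and rose by 2.46 (3.89e-05). Lcn2, a secreted iron-siderophore carrier of reactive astrocytes, read 11.69, 11.88 and 11.66 against 9.63, 9.6 and 8.95, a rise of 2.35 (0.000194). Edn2, an endothelin that stressed photoreceptors release, rose by 1.36 (0.000351), and Ccn2, a matricellular growth factor, by 1.6 (0.000351). Serpina3n, a serine protease inhibitor of reactive astrocytes, was split. It read 13.32, 13.33 and 9.59 against 8.39, 8.36 and 8.85, with library 3 nearest to NT, and the rise of 3.55 (0.0236) was 4.79 without that library. Of 23 genes of Müller glia homeostasis, 5 were called higher and 1 lower. Clu, the extracellular chaperone clusterin, read 16.14, 16.15 and 15.57 against 14.33, 14.53 and 14 (log2 1.66, 0.00089). Crym, a thyroid hormone binding crystallin, rose by 1.72 (0.000205) and Cp, the ferroxidase ceruloplasmin, by 2.25 (0.00238), while Ca14, a carbonic anhydrase, fell by 1.12 (0.00178). Glul, the glutamine synthetase that defines Müller glia, read 15.74, 15.21 and 15.6 against 15.67, 15.7 and 15.57, with overlapping ranges (-0.13, 0.679). The water channel Aqp4 differed by 0.53 (0.169).

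Of 30 receptors and mediators of the gp130, IL-4 and STAT pathways, 9 were called higher and 0 lower, and 5 had a lower mean than NT (at an unadjusted p under 0.05, 18 higher and 1 lower). Il4r, the interleukin 4 receptor α chain, read 11.15, 11.4 and 10 against 8.43, 8.21 and 8.03. Library 3 was lowest, but still over 1.5 units above NT, and the rise was 2.63 (SE 0.29, limma adjusted p 0.000403). Bcl3, an IκB family coactivator, read 8.07, 8.53 and 8.36 against 6.09, 5.85 and 5.96 (2.35, 7.53e-05). Socs3, the feedback inhibitor of gp130 signaling, read 8.06, 8.81 and 7.39 against 5.98, 5.6 and 5.62 (2.35, 0.00089). Jak3 rose by 1.98 (0.000218), Osmr, the oncostatin M receptor, by 2.09 (0.00853), and Stat3 by 1.01 (0.000997). The count was 13 without MSC-EPO library 3 and 5 or 6 without any other library.

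The erythropoietin axis of the rat itself showed no common direction. Rat Epo was below the level for testing, at 0.73, 0.64 and 0.57 in MSC-EPO and 0.63, 0.57 and 0.57 in NT libraries, and the human transgene was not measured in these rat gene values. Epor, the erythropoietin receptor, read 3.58, 3.66 and 3.81 against 4.07, 3.87 and 3.97. These values are near the floor of the tested range. All 3 MSC-EPO values were below NT, as in 15% of all tested genes, but the difference of -0.29 did not pass (limma adjusted p 0.0509). Tfrc, the transferrin receptor that takes up iron, was the clearest member, at 10.56, 10.4 and 10.55 against 11.78, 11.9 and 12.01, a fall of 2.63-fold (log2 -1.4, SE 0.09, adjusted p 3.89e-05). Sham retinas also differed from NT in Tfrc, by -1.08. Ptpn6, a phosphatase that damps receptor signaling in blood cells, and Lyn, a kinase of the same cells, rose by 1.76 (0.0212) and 1.55 (0.0249). Without any 1 library other than MSC-EPO library 3, both calls were absent. Over 17 tested genes of the axis the median was 0.07.

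Of 46 tested growth factor genes, 4 were called higher (8.7%, beside 2.37% of all tested genes) and 1 lower (2.17%, beside 1.19%). Cntf, the ciliary neurotrophic factor, read 9.57, 9.65 and 9.19 against 8.05, 8.27 and 7.78, a rise of 2.71-fold (log2 1.44, limma adjusted p 0.000351). Bdnf, the brain-derived neurotrophic factor, read 6.18, 6.23 and 6.65 against 7.77, 7.75 and 7.71 and fell by 1.39 (0.000738). Neither pair of groups overlapped. Fgf2, a survival factor for photoreceptors, read 8.44, 8.12 and 6.35 against 5.96, 6.34 and 5.98, where library 3 lay just above the highest NT value, and its rise of 1.54 (0.0439) was 2.19 without that library. Pgf, a VEGF family ligand, rose by 1.17 (0.0109), and the remaining call was Fgfr1 (1.01, 0.0354), a receptor of FGF ligands named after its value was seen. The count of higher calls fell to 1 without NT library 3 and rose to 7 without MSC-EPO library 3.

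Of 44 tested microglia and macrophage genes, 26 (59.1%) were called higher and 0 lower (limma; at an unadjusted p under 0.05, 36 higher and 0 lower), and the median was 1.52. The mean was above NT in all 44, and 36 had no overlap between the groups. Over all tested genes, 2.37% were called higher and 16.4% had all MSC-EPO values above NT. C1qa, a subunit of the complement initiator that microglia make, read 11.14, 10.9 and 11.06 against 8.61, 8.54 and 8.22, 5.95-fold higher (log2 2.57, SE 0.37, adjusted p 0.00178). Aif1, the microglial protein Iba1, read 9.98, 9.4 and 9.58 against 7.51, 7.47 and 7.22 (2.26, 0.00715). The 3 MSC-EPO libraries lay close together for these 2 genes, more than 1.5 units above NT. Lgals3, a lectin of phagocytes, rose by 2.6 (0.000363), Trem2, the lipid-sensing receptor, by 1.54 (0.00194), Csf1, the growth factor for microglia, by 1.64 (0.00268), and the Fc receptor Fcgr3a by 2.31 (0.00268). Ptprc, the leukocyte common antigen CD45, varied more, at 10.31, 9.44 and 7.94 against 6.88, 6.8 and 6.37, with library 3 nearest to NT (2.55, 0.0294). The mean level of the list over NT was 2.07 in MSC-EPO library 1, 1.64 in library 2 and lowest in library 3. Without MSC-EPO library 3, 33 genes were called, and without any of the other 5 libraries 13 to 17.

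Of 24 complement genes, 12 were called higher and 0 lower, and a median of 1.51. C3, the central component, read 12.61, 12.06 and 12.06 against 9.48, 8.9 and 9.33, 8.02-fold higher (log2 3, SE 0.4, limma adjusted p 0.00121). Serping1, the inhibitor of C1r and C1s, read 12.37, 12.93 and 11.1 against 9.6, 9.33 and 8.83 (2.88, 0.0014). C1s, one of its target proteases, read 11.58, 11.38 and 9.99 against 8.33, 8.58 and 7.83 (2.74, 0.0031). Cfb, the factor B of the alternative pathway, rose by 2.55 (0.00459). All 3 MSC-EPO values exceeded NT in these 4 genes, and 10 to 16 members were called with 1 library left out.

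Class II antigen presentation held 5 of the largest rises, all over 3 log2 units, among 7 of 18 tested genes called higher and 0 lower (at an unadjusted p under 0.05, 9 higher and 0 lower). Cd74, the invariant chain that guides class II molecules, read 13.8, 12.58 and 13.02 against 9.76, 9.83 and 8.6, 13.3-fold higher (log2 3.74, SE 0.64, limma adjusted p 0.00487). RT1-Ba, a class II α chain, read 12.04, 10.83 and 11 against 7.64, 7.89 and 6.71, 14.7-fold higher (3.88, 0.00757). RT1-Db1, a class II β chain, read 11.2, 10.28 and 10.4 against 7.23, 7.56 and 6.38 (3.57, 0.00801). MSC-EPO library 1 was the highest and NT library 3 the lowest in each of the 3, and the groups were more than 2 units apart. RT1-Da (3.36, 0.02) and RT1-Bb (3.2, 0.0252), an α and a β chain, followed. Ciita, the transactivator of class II genes, read 7.47, 7.28 and 6.24 against 7.88, 8.04 and 7.74, without a called difference (-0.89, 0.238). Without NT library 3, only 3 class II genes were called, 4 without NT library 1 or MSC-EPO library 1, and 7 without MSC-EPO library 3. Genes of this family are alike in sequence, so reads may have been shared between them.

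Class II promoters are known for a Y box (CCAAT, or ATTGG on the other strand) close to the start. The 250 bases before the start of RT1-Ba and RT1-Db1, the 2 class II chains with the largest rise, are shown to place that motif beside their values, in lower case with the Y box in capitals. They are from RefSeq on build GRCr8, not the build used for quantification, and are printed in the direction of transcription.
RT1-Ba (chr20:4576807-4577056, plus strand): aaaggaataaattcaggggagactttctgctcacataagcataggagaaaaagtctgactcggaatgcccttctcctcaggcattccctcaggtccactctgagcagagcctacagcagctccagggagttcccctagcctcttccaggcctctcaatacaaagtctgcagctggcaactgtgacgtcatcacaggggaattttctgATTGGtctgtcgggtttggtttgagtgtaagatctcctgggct
RT1-Db1 (chr20:4560163-4560412, minus strand): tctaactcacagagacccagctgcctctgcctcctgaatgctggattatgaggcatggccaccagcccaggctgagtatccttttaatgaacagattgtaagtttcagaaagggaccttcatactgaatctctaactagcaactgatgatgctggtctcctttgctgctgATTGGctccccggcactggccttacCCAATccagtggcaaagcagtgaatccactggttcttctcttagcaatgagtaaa
The Y box began 43 bases before the start of RT1-Ba, and 80 and 55 bases before that of RT1-Db1. Of the 7 called class II genes 6 had a promoter in the table, and 6 of these held a Y box, a short motif found in 34.0% of all 33469 promoters of that length.

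The class I pathway moved in the same direction, with 9 of 23 genes called higher and 0 lower, and a median of 1.23. B2m, the light chain of class I molecules, read 14.27, 13.91 and 13.78 against 12.44, 12.46 and 11.73 (1.77, limma adjusted p 0.023), and Tap1, the peptide transporter, read 8.5, 8.81 and 8.22 against 7.41, 7.11 and 7.35 (1.22, 0.0274). The groups did not overlap for either gene. Psmb8, a subunit of the immunoproteasome, rose by 1.76 (0.0445), and the class I heavy chains RT1-CE5 and RT1-A2 by 1.96 (0.0031) and 1.87 (0.0129), with the same caution on related sequences. The count was 2 or 3 without any 1 library other than MSC-EPO library 3, without which it was 11.

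Interferon-stimulated genes formed the longest list of rises. All 50 tested genes had a higher mean in MSC-EPO retinas, 33 (66%) were called higher and 0 lower (limma; at an unadjusted p under 0.05, 42 higher and 0 lower), and the median was 1.36. Gbp2, a guanylate-binding GTPase, read 10.67, 11.51 and 10.04 against 8.08, 8.01 and 7.33, 7.63-fold higher (log2 2.93, SE 0.46, adjusted p 0.00295). Mx1, a dynamin-like antiviral GTPase, read 9.37, 8.98 and 8.01 against 6.53, 6.1 and 5.93 (2.6, 0.0118). In both genes MSC-EPO library 3 was the lowest of its group and still above NT. Irf9, an interferon-responsive transcription factor, was tight, at 9.23, 9.38 and 9.25 against 8.06, 7.99 and 8.15 (1.22, 0.00168). Mx2 rose by 2.44 (0.0075), Irgm, an immunity-related GTPase, by 1.68 (0.00889), Ifit2, which binds foreign RNA, by 1.56 (0.0106), and Irf7 by 1.52 (0.0206). Irf1 did not pass, at 9.35, 9.44 and 8.95 against 8.47, 8.54 and 8.34 (0.79, 0.111). These calls depended on single libraries. There were 4 without NT library 3, 8 and 11 without MSC-EPO libraries 2 and 1, 13 and 16 without NT libraries 2 and 1, and 36 without MSC-EPO library 3. Adjusted p-values of most called members lay between 0.01 and 0.05.

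The interferon-stimulated response element core (GAAA, any 2 bases, then GAAA) was searched in the same windows. Gbp2 and Irgm, the genes with the smallest p that held the core, are shown with it in capitals. In Gbp2 it lies on the opposite strand.
Gbp2 (chr2:234005477-234005726, plus strand): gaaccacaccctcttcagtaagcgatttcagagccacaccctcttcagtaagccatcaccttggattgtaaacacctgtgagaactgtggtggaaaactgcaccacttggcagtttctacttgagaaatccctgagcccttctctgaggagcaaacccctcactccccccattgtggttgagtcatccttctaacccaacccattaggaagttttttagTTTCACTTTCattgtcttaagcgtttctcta
Irgm (chr10:33742579-33742828, minus strand): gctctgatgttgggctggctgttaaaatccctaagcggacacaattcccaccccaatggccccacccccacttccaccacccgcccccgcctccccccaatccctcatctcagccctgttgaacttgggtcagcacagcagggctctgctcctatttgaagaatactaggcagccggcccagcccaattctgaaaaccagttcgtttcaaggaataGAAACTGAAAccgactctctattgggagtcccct
The core began 31 bases before the start of Gbp2 and 34 before that of Irgm. Of 33 called interferon-stimulated genes, 26 had a promoter in the table and 20 of these held the core on either strand, against 3.41% of all promoters (1140 of 33469). The Crx site TAATCC was in 3 of the 14 promoters found for the 19 called rod genes, beside 6.34% of all promoters. A match describes these letters and not a bound site.

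Lymphocyte genes had raised medians and few calls. Of 30 T and NK cell genes 3 were called higher and 1 lower, with a median of 0.60. Cd3e, the T cell receptor component that defines T cells, read 6.1, 5 and 5.18 against 4.44, 4.06 and 4.11. No value overlapped, but the difference of 1.23 did not pass (limma adjusted p 0.356). Itgal, an integrin of leukocytes, rose by 2.15 (0.0287) and Cd4 by 2.06 (0.0301). Of these higher calls 0 were left without any 1 library other than MSC-EPO library 3, and 4 without that one. Of 15 B and plasma cell genes 0 were called (at an unadjusted p under 0.05, 4 higher and 0 lower), although the median was 1.15, and 3 were called higher without MSC-EPO library 3. Cd79a, a chain of the B cell receptor, read 7.43, 6.64 and 4.19 against 4.35, 3.98 and 4.17, high in libraries 1 and 2 and at the NT level in library 3 (1.92, 0.178). The level of the B cell list over NT was 1.65, 1.22 and 0.21 in the 3 MSC-EPO libraries, the T and NK list 0.95, 0.57 and 0.37, and their part in the class II and interferon results was not tested. Among 27 chemokines and receptors, 2 were called higher and 0 lower, 4 without MSC-EPO library 3 and 0 or 1 without any other library. Cxcl10, an interferon-induced ligand for T cells, read 7.02, 6.56 and 6.78 against 5.29, 5.22 and 4.95 (1.64, 0.0161). Ccl2, the monocyte attractant, differed by 1.45 without passing (0.106).

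In the NF-κB, TNF and Toll-like receptor list, 8 of 40 genes were called higher and 1 lower. Tnfrsf1a, the TNF receptor, read 9.15, 9.34 and 8.87 against 7.83, 7.82 and 7.39 (1.44, limma adjusted p 0.000878). Tlr2 rose by 1.45 (0.0147), and Icam1, the leukocyte adhesion molecule, by 1.47 (0.0185). Tnfaip3, the enzyme A20 that restrains NF-κB, was the one fall, at 9.64, 9.59 and 8.72 against 10.88, 11.02 and 10.89 (-1.61, 0.00507), with no overlap. Il1b read 4.64, 4.46 and 4.21 against 4.03, 3.94 and 3.94, near the floor of the tested range (0.46, 0.421), and Tnf was below it. The higher calls numbered 16 without MSC-EPO library 3 and 2 to 5 without any other library. Of 40 cell death genes 5 were called higher and 1 lower, and 1 to 7 higher with a library left out, the 7 without MSC-EPO library 3. Nlrp3, an inflammasome sensor, read 6.93, 6.72 and 6.13 against 5.31, 5.43 and 5.23 (1.27, 0.00774). Casp4, an inflammatory caspase, rose by 1.37 (0.0302), and Xiap, an inhibitor of caspases, fell by 1.54 (0.0289), most in library 3 (11.19, 11.02 and 9.33 against 11.97, 12.09 and 12.09). Its difference was -0.95 without that library, under the fold threshold, and it was not called without any 1 NT library either. Ripk3 and Mlkl, the necroptosis kinase and its effector, differed by 0.83 (0.128) and 0.7 (0.0676), without passing.

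The study chose 8 effector genes on these samples, so their direction is not independent evidence; 3 were called higher and 0 lower, with a median of 1.01. Hspb1, a small heat shock protein, was the most regular, at 8.78, 8.87 and 8.9 against 7.24, 7.01 and 6.78, 3.58-fold higher (log2 1.84, SE 0.13, limma adjusted p 6.68e-05). Ccnd1, the G1 cyclin D1, read 10.69, 10.97 and 9.68 against 8.45, 8.82 and 8.04 (2.01, 0.00316), and Ccnd2 read 10.21, 10.2 and 8.78 against 8.6, 8.55 and 8.58 (1.16, 0.0402). Library 3 was the lowest for both cyclins, and close to NT for Ccnd2. Cdk6, the kinase partner of the D cyclins (0.65, 0.142), Plau, the urokinase activator of plasminogen (1.09, 0.0963), and Nfatc1, a calcium-dependent factor (0.93, 0.0945), did not pass. Without MSC-EPO library 3, 6 of the 8 were called. In the wider list of G1 cyclins and inhibitors 4 of 21 were called higher, 5 without MSC-EPO library 3 and 1 or 2 without any other library, and Cdkn1a, the inhibitor p21, differed by 0.27 (0.453). In S phase and mitosis 0 of 40 genes were called higher and 1 lower (at an unadjusted p under 0.05, 3 and 3), and 4 higher without MSC-EPO library 3. The 1 lower call was 2.5% of the list, beside 1.19% of all tested genes. Mki67, the proliferation marker, read 7.9, 7.35 and 5.85 against 5.61, 5.58 and 5.31, far above NT in libraries 1 and 2 and just above it in library 3 (1.54, 0.167). Prc1, a spindle midzone protein, was the fall (-1.56, 0.00135). Of 23 heat shock and chaperone genes Hspb1 alone was called, with Bag3 under the fold threshold (0.92, 0.00232).

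Glycolysis and lactate genes were lower where called, 4 of 29, with 0 higher (13 lower and 0 higher at an unadjusted p under 0.05). Hk2, the hexokinase enriched in photoreceptors, read 11.95, 11.6 and 12.4 against 13.9, 13.94 and 14.19, 4.07-fold lower (log2 -2.03, SE 0.22, limma adjusted p 0.000414). Pfkfb2, which sets the pace of glycolysis, read 10.55, 10.4 and 10.27 against 11.62, 11.71 and 11.82 (-1.31, 0.000126), and Slc16a1, a lactate transporter, read 11.03, 11.01 and 10.88 against 12.08, 12.41 and 12.13 (-1.23, 0.000176). No values overlapped in these 3 genes. Of 38 respiratory chain genes 0 were called (limma; 8 lower and 0 higher at an unadjusted p under 0.05), with a median of -0.21. Of 27 antioxidant and NRF2 target genes 3 were called higher and 0 lower. Hmox1, the heme oxygenase, read 8.38, 8.02 and 8.23 against 6.59, 6.7 and 6.42 (1.64, 0.000847), Mt2A, a metallothionein, rose by 1.97 (0.0017), and the cystine transporter Slc7a11 by 1.01 (0.0477). Of 17 genes of iron handling, Lcn2, Cp and Hmox1 were the 3 called higher and Tfrc the 1 called lower. Of 20 clock genes 2 were called lower (10%, beside 1.19% of all tested genes), Arntl, the core activator (-1.06, 0.000176), and Rorb (-1.05, 0.0351), which photoreceptors also use. Of 25 immediate early genes 1 was called (4%, beside 1.19% of all tested genes called lower). It was the fall of Nr4a1, named after its value was seen (-1.51, 0.0307), with 3 lower without MSC-EPO library 3 and 0 without any other library. Cholesterol synthesis had 0 lower calls of 27 (limma; 13 lower at an unadjusted p under 0.05), and its 2 higher calls, Ch25h (1.01, 0.0111) and, named after its value was seen, Apoe (1.13, 0.0391), act in sterol oxidation and transport. These higher calls numbered 0 or 1 without any 1 library other than MSC-EPO library 3, and the clock calls 1 without any library other than MSC-EPO library 1.

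Matrix genes were divided by library. Of 53 genes of extracellular matrix and integrins 5 were called higher and 0 lower, and without MSC-EPO library 3 the count was 19. The level of the list over NT was 0.98, 1.03 and -0.22 in the 3 MSC-EPO libraries. Sparc, a collagen chaperone, read 14.57, 14.91 and 14.09 against 13.47, 13.18 and 13.06 (1.28, limma adjusted p 0.00591), and Spp1, osteopontin, read 10.1, 9.87 and 9.06 against 8.06, 8.58 and 7.99 (1.47, 0.00629). Both were above NT in all 3 libraries. Fn1, fibronectin, read 11.35, 10.87 and 8.9 against 9.82, 9.09 and 9.49, below NT in library 3 alone (0.9, 0.316). Of 23 genes of plasminogen activation and metalloproteinases 6 were called higher and 0 lower, 3 or 4 without any 1 library other than MSC-EPO library 3 and 12 without that one. Timp1, the inhibitor of metalloproteinases, read 9.18, 10.07 and 8.89 against 6.92, 7.02 and 6.6, 5.77-fold higher (log2 2.53, 0.000448). Adamts4, an aggrecan-cleaving protease, read 8.5, 8.96 and 8.52 against 6.49, 6.61 and 6.39 (2.17, 0.000158), and Mmp2 rose by 1.36 (0.0294). Of 30 endothelial and adhesion genes 3 were called higher, all of leukocytes or of adhesion (Icam1, Itgal and Itgb2), 5 without MSC-EPO library 3, and 0 or 1 without any other library. Of 19 genes listed as mesenchymal stromal cell markers 1 was called higher, Pdgfra (1.13, 0.00704), and 1 lower, Nt5e, the ectoenzyme CD73 (-1.09, 0.00391). Each was 5.26% of the list, beside 2.37% called higher and 1.19% called lower over all tested genes. The higher call was absent without MSC-EPO library 2 and the lower one without library 3. They are rat genes, and Nt5e is also made by rods.

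Tissues next to the retina were checked with their defining genes. Lens genes varied between libraries of both groups, and 0 of 25 were called (limma; 2 higher and 0 lower at an unadjusted p under 0.05). Their level relative to the NT mean was -0.54, 0.32 and 3.10 in MSC-EPO libraries and -1.01, 0.66 and 0.35 in NT libraries, and the median difference of 1.08 was -0.02 without MSC-EPO library 3. Cryaa, the αA crystallin, read 11.76, 14.11 and 16.29 against 10.73, 14.11 and 13.48, and Mip, the lens fiber water channel, read 8.12, 8.9 and 11.15 against 8.1, 8.38 and 8.7. Lens genes were thus present in every library and highest in MSC-EPO library 3. In cornea, ciliary body and iris, 2 of 28 genes were called lower (7.14%, beside 1.19% of all tested genes) and 0 higher. Lamb3, a laminin chain of epithelial basement membranes, read 6, 5.87 and 7.42 against 8.84, 9.03 and 9.34, 6.23-fold lower (log2 -2.64, SE 0.34, limma adjusted p 0.001), and Myh6, a myosin heavy chain, read 7.8, 7.94 and 7.86 against 9.02, 9.43 and 9.25 (-1.37, 0.000839). Krt12, the corneal keratin, read 5.94, 6.49 and 6.71 against 6.73, 9.18 and 9.09, with NT library 1 almost at the highest MSC-EPO value (-1.96, 0.0716). Among 5 tested erythrocyte genes 0 were called (3 higher and 0 lower at an unadjusted p under 0.05), with Hbb at 1.16 (0.153). In the list of genes known to respond to cyclosporin or glucocorticoids, 2 of 22 were called higher (9.09%, beside 2.37% of all tested genes), Lcn2 and Mt2A. The 1 lower call (4.55%, beside 1.19%) was Sgk1 (-1.34, 0.0412), which among the fits with 1 library left out was called only without MSC-EPO library 1. Lcn2 and Mt2A also stand in the gliosis list. In sham against NT, 2 genes of the drug list were called higher and 0 lower, and the immunosuppressants are named only for rats with xenografts. The part of the drugs in these calls was not tested.

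**Figure D3:**
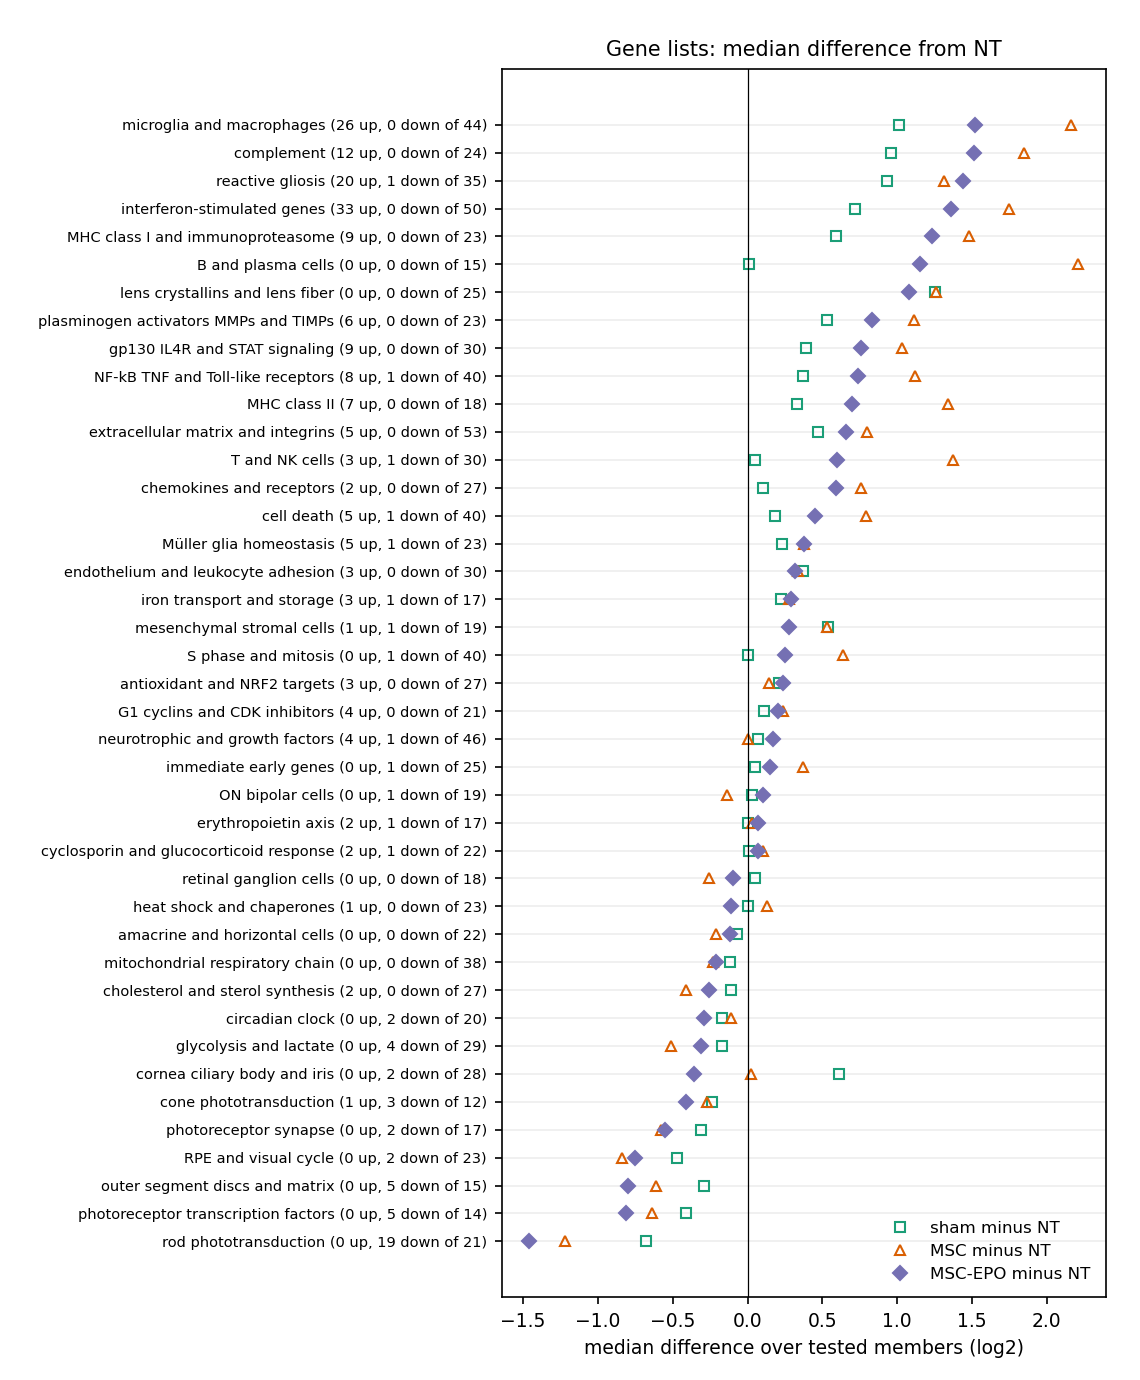
Median log2 difference from NT over the members of each list with at least 10 tested genes (horizontal axis), for MSC-EPO (diamonds), MSC (triangles) and sham (squares), with the count of genes called higher and lower in MSC-EPO against NT in the labels. The MSC-EPO medians run from -1.46 (rod phototransduction) to 1.52 (microglia and macrophages), and the 3 sets share the NT libraries.

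Sham and MSC retinas were set against the same NT libraries, so their values are given side by side and not as independent comparisons. In sham against NT 45 genes were called higher (0.292%) and 9 lower (0.0584%), and in MSC against NT 848 higher (5.51%) and 151 lower (0.98%). These counts rest on a shared spread estimate over 12 libraries, whose groups vary unequally. With only the libraries of the groups compared, sham against NT gave 177 calls in place of 54. MSC against NT then gave 874 in place of 999, and MSC-EPO against NT 501 in place of 549. The median difference from NT of the rod list was -0.68 in sham, -1.22 in MSC and -1.46 in MSC-EPO. For gliosis the 3 medians were 0.93, 1.31 and 1.44, for microglia 1.01, 2.16 and 1.52, for interferon-stimulated genes 0.72, 1.75 and 1.36, and for B and plasma cells 0.01, 2.21 and 1.15. Of the 365 genes called higher in MSC-EPO against NT, 129 were also over 1 log2 unit above NT in sham retinas. Of the 184 called lower, 19 were over 1 unit below NT in sham. Over all 15403 tested genes, 211 were over 1 unit above NT in sham and 37 over 1 unit below. The 365 and 184 genes were selected on MSC-EPO against the same NT libraries. These counts therefore do not measure how much of the change is absent in sham. Gnat1 had means of 16.76 in sham and 15.62 in MSC retinas, and Gfap of 13.09 and 13.76. The MSC-EPO values of Gnat1 were all below sham, while those of Gfap overlapped sham at the lower end.

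**Figure D4:**
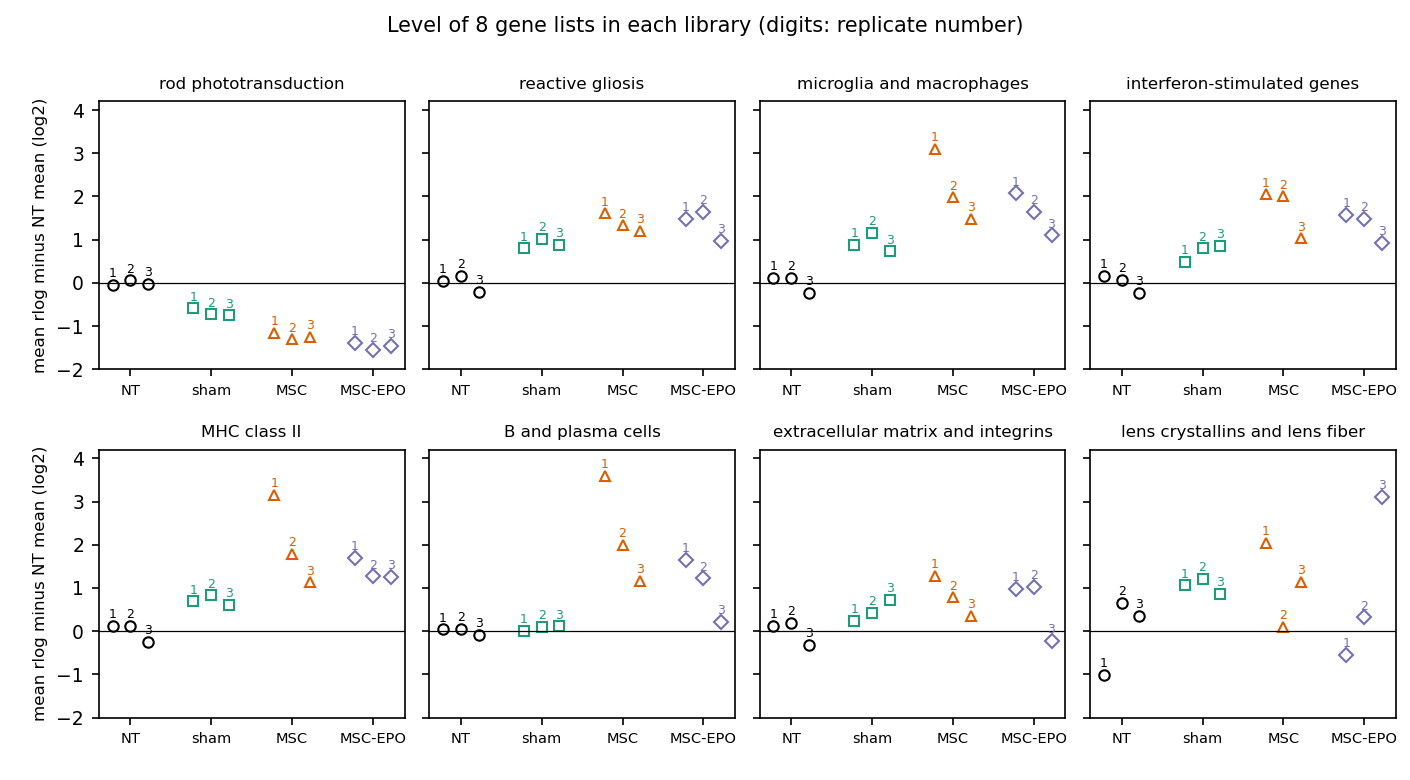
Mean rlog of the tested genes of 8 lists minus the NT mean (log2, vertical axis) in each library, by group (horizontal axis), with digits for the replicate number. The rod list is lowest in MSC-EPO libraries (-1.39, -1.55 and -1.46), and MSC-EPO library 3 is lowest of its group for matrix genes (-0.22) and highest of all libraries for lens genes (3.10).

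The direct test of MSC-EPO against sham called 7 of 15403 genes (0.0454%), 1 higher and 6 lower, with 514 higher and 696 lower at an unadjusted p under 0.05. Hspb1 was the rise, with sham values of 7.71, 7.96 and 7.87 below all MSC-EPO values (difference from sham 1.01, limma adjusted p 0.0353). Cds1, a synthase of phosphatidylinositol precursors, had the smallest p. It read 11.13, 10.96 and 10.69 in MSC-EPO, 12.16, 12.04 and 12.03 in sham and 12.74, 12.89 and 12.83 in NT retinas, and MSC-EPO lay 1.15 below sham (0.00944). Esrrb lay 1.35 below sham (0.034), whose values were 10.66, 9.89 and 10.03. Both were thus lowest with MSC-EPO, with sham between them and NT. Myh6 differed from sham by -1.27 (0.0353), and sham was at the NT level with 8.79, 9.29 and 9.32. Muc4 (-2.42, 0.0368), a mucin, and Krt75 (-1.31, 0.0368), a keratin, are epithelial genes, and sham was above both NT and MSC-EPO in them. The remaining call was Spink5, a protease inhibitor of skin, whose symbol stands on 2 identifiers, so its values are not given. Gnat1 differed from sham by -1.36 (0.237), without passing. The 7 calls depended on the fit and on single libraries. The count was 0 without MSC-EPO library 2, without sham library 3, or with the MSC-EPO and sham libraries alone. It was 1 without MSC-EPO library 1 or with a block for the replicate number. Without MSC-EPO library 3 the count from this test was 104 (69 higher and 35 lower). Of the 69 higher genes 38 have no symbol and 57 are in no list, and the largest difference, 4.98, was in a gene without a symbol. Genes with a symbol, named here after their values were seen, included Serpina3n, Serping1, Cp and Nes. The largest falls were in epithelial genes, Krt12 at -3.91, Krt5 at -3.87, Krt13 at -3.36 and Krt4 at -2.96, and Gnat1 (-1.81) was among the others.

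MSC-EPO against MSC called 1 gene (0.00649%), and 117 higher and 359 lower at an unadjusted p under 0.05. That gene, ENSRNOG00000050489, has no symbol in the files. It read 3.86, 3.89 and 3.51 in MSC-EPO, 5.56, 5.43 and 5.75 in MSC and 3.54, 3.45 and 3.48 in NT retinas, which places MSC-EPO near NT and MSC alone above (difference from MSC -1.83, limma adjusted p 0.000105). For 205 further genes MSC-EPO was more than 1 log2 unit below MSC and for 9 above it, without a call. The count was 1 to 11 with 1 library of these groups left out, the 11 being without MSC library 3. Cd74 and Ptprc differed from MSC by -1.11 (0.794) and -1.52 (0.794), and Gnat1 by -0.23 (0.839). A p above the threshold does not show that the 2 cell products act alike.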

How the data were processed

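Retinal RNA libraries were made with a stranded mRNA kit. Per the submitters' processing notes, Salmon 1.1.0 and the build Rnor_6.0 were used. The authors deposited rlog values, on a log2 scale, with 1 table per library. A table of the whole series repeats them in 15 columns that were not used (0 values differed at a tolerance of 1e-09), nor was an unnamed column marking 88 genes.

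In R 4.3.3, limma 3.58.1 was fitted to the 12 libraries of 4 groups with trended variance, after the filter on mean rlog of at least 3.32, and the Benjamini-Hochberg adjustment ran over 15403 genes. The fit was also run on simulated data, with independent normal noise of equal spread per gene in all 12 libraries. No outlying library was simulated, so that run does not cover the effect of MSC-EPO library 3. The members and gene lists were chosen with earlier results of these data known. Of 1111 listed symbols in 44 lists, 1072 were found as written, 6 under another name and 33 were not found. The text names the 10 largest called rises and falls without overlap, up to 6 genes with the smallest p and the defining genes of each list, the study's effector genes and the called genes against sham and MSC. A few of these are not reported here. Promoters are RefSeq, GRCr8. Gene lengths matched 13563 of 15403 genes (88.1%).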

Additional observations from a re-analysis of the deposited data

How the results depend on the processing

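The depth of each library is not in the files, 3 libraries per group limit precision, and MSC-EPO library 3 weighed on most counts. Against NT, the total was 277 to 908 with 1 library left out (lowest without NT library 3, highest without MSC-EPO library 3), with 150 to 725 higher and 127 to 207 lower genes. Rises made up 50.8% of calls without MSC-EPO library 1, 53.2% without library 2, 54.2% without NT library 3 and 79.8% without MSC-EPO library 3. Array weights gave 1046 calls (850 higher, 81.3%). The adjusted p alone gave 1583 (824 higher, 759 lower) and a fold over 1.5 gave 1114 (643 and 471). The cause of these changes was not tested. The other settings stayed within 1.5 times of 549 in total. The deviations of same-numbered MSC-EPO and NT libraries correlated at 0.12, -0.01 and 0.08, and those of differently numbered ones at -0.12 to 0.03. With 3 libraries per group and MSC-EPO library 3 far from the others, these values cannot show whether equal numbers mark a pairing. With the replicate block, 569 genes were called in 12 libraries and 473 in the 6 alone, where 112 were lower.

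Against sham, 1 gene was called with the replicate block, 0 with the groups alone, 12 after quantile normalization, 13 by adjusted p alone and 0 to 104 with 1 library left out. Against MSC the counts were 0 with the groups alone, 2 after quantile normalization and 1 to 11 with 1 library left out. Sham against NT gave 177 with the groups alone, 161 by adjusted p alone and 18 to 31 with 1 library left out, and MSC against NT gave 2378 by adjusted p alone and 638 to 1241. Of 119 called genes among those named, 25 to 35 lost the call without any 1 library other than MSC-EPO library 3. Without that one, 7 lost the call and 8 named genes not called before gained one. The only list median of at least 0.3 in size that changed sign under 17 alternatives was that of the lens. Medians of the 44 lists also moved in size, by at least the standard deviation of the list level between the MSC-EPO libraries. This occurred in 19 cases with no library left out and 23 with 1 left out, 8 of these without MSC-EPO library 3. 3 uncalled genes changed sign. Glul was at 0.37 after quantile normalization and -0.24 to 0.03 with 1 library left out, Rbpms at -0.08 after quantile normalization, -0.03 with array weights and -0.07 to 0.14 with 1 library left out, and Grm6 at -0.01 to 0.27 with 1 library left out.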

Other observations

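The following called genes stand in no list and were chosen after their values were seen. Among the rises were Chi3l1, a chitinase-like protein of reactive astrocytes (2.64 on the log2 scale, limma adjusted p 0.000287), Axl, a receptor for apoptotic cell ligands (2.21, 0.00428), Prss56, a serine protease linked to eye size (2.26, 0.00943), and Il17rb, a receptor for interleukin 25 (2.36, 0.000408). The MSC-EPO values of Axl were 10.41, 10.19 and 9.14, against 7.98, 7.76 and 7.37 in NT libraries. Among the falls were Rdh11, a retinol dehydrogenase (-1.47, 0.000351), Drd4, the dopamine receptor of photoreceptors (-1.33, 0.0398), and Optn, an autophagy receptor (-1.32, 7.53e-05). Drd4 read 8.57, 8.39 and 9.87 against 10.1, 10.69 and 10.04. In no list were 216 of the 365 called rises and 131 of the 184 called falls.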
